A study of Mus musculus with 4 samples.

Results

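The hormones and granins of enteroendocrine cells were followed in RNA of CD8αβ+ IELs, which are T cells that carry both CD8 chains and live between the epithelial cells of the small intestine, and of CD8αβ+ SPLs, the matching T cells of the spleen. The 10 genes are *Chga*, *Chgb*, *Sct*, *Gcg*, *Cck*, *Gip*, *Sst*, *Ghrl*, *Nts* and *Tac1*. Every probe that is not a control and carries one of these names was taken, which gave 16 probes among 41174, for 10 of the 27376 names on the array, and 5 of the genes had more than 1 probe. The genes were chosen with their values on these arrays known, so that their differences between CD8αβ+ IELs and CD8αβ+ SPLs are given as a description and without a test.

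Each group held 2 samples. The cells came from WT male mice that were 8 to 12 weeks old by the sample labels, a genotype that both groups shared, and were not stimulated in culture. By the methods of the study the mice were on a C57BL/6 background, each sample was pooled from several mice, and cells were gated as CD45+CD3+CD8α+CD8β+TCRβ+. IELs had been released from pieces of small intestine with EDTA and collected from a Percoll gradient before the sort, and red blood cells had been lysed in the spleen cells. In such bulk RNA, fewer cells of a type and less RNA per cell cannot be told apart.

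Enteroendocrine cells are scattered hormone-producing cells of the gut epithelium. They store peptide hormones in dense-core granules, whose cargo includes the granins, and release them in response to nutrients, bile acids and bacterial products. Subsets of these cells are classically named after the hormone they make, such as glucagon-like peptides, cholecystokinin or somatostatin, although single cells often make several. T cells are not known as a main source of these hormones.

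RNA was read on 4 Agilent arrays of 1 color, with a separate array for each sample. Slide 1 carried IEL replicate 1 beside SPL replicate 2, and slide 2 carried the other pair. Levels are log2 processed intensities relative to the 75th percentile of the array. That percentile was 312 and 435 units on the IEL arrays (replicates 1 and 2) and 479 and 605 units on the SPL arrays. Negative control spots had a median between 1.48 and 1.69 units, and the dimmest probe called well above background by the scanner software had between 6.66 and 7.92 units. Of the CD8 T cell markers, 9 of 9 were well above background on every array, with *Cd8a* between 42261 and 52019 units and *Cd8b1* between 52602 and 167590 units. IEL replicate 2 lay closer to SPL replicate 1 on its own slide than to IEL replicate 1, with Pearson's r across probes of 0.992 and 0.946. It also held erythroid and B cell genes near the levels of the spleen arrays (*Hbb-b1* 22398 units against 210 in IEL replicate 1, and 31748 and 46321 in the spleen), so the CD8αβ+ IEL means below join arrays that differ in these genes, and the values on slide 2 rest on IEL replicate 2. Precision is limited by the number of arrays, and an exact permutation test of 2 samples against 2 cannot go below a two-sided p of 0.33. Limma found 0 probes higher and 0 lower in CD8αβ+ IELs among 27911 tested (0% called in either direction). At an unadjusted p under 0.05 it found 1293 higher (4.63%) and 307 lower (1.1%).

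The probes are 60 bases long, and their sequences show which piece of each messenger RNA was read. The last 30 bases are shown for the 6 tested probes whose levels had the widest range over the arrays. The probe of *Sct* holds AATAAA, the letters of the common polyadenylation signal, which are in capitals. Positions are those of the array's annotation on mm9 and cover the whole probe, at chr12:103803083-103803142 (+) for *Chga*, chr2:132620703-132620762 (+) for *Chgb*, chr7:148464238-148464297 (-) for *Sct*, chr2:62312685-62312744 (-) for *Gcg*, chr9:121399031-121399090 (-) for *Cck* and chr16:23889776-23889835 (-) for *Sst*.
Chga A_51_P358316: ccttcttatccatggggcacaactgcaata
Chgb A_51_P191669: aaatagatgtttcacgtgtctgtgacaatg
Sct A_51_P234359: gttgtccttggcatcAATAAAaaaggaatt
Gcg A_51_P406253: acatgaccacctggtaaccgtagtggtaaa
Cck A_51_P137322: cagagtgtgcaatgcagccacatctcagcc
Sst A_51_P262489: tgttgtcctagccagacctctgatccctct

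Another 4 probes are shown whole, because their 60 bases cover a much longer stretch of the genome and therefore join exons that an intron separates. The *Gip* probe spans 1222 bases at chr11:95886745-95887966 (+), the *Ghrl* probes span 2008 bases at chr6:113667101-113669108 (-) and 843 bases at chr6:113666248-113667090 (-), and the *Tac1* probe spans 1415 bases at chr6:7507722-7509136 (+). Such probes match spliced RNA over their whole length, and unspliced RNA or genomic DNA only in part.
Gip A_52_P313098: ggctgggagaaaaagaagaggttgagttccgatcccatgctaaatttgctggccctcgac
Ghrl A_51_P464000: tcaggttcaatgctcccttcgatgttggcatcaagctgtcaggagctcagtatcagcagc
Ghrl A_52_P675556: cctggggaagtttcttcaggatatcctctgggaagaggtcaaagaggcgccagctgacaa
Tac1 A_51_P216456: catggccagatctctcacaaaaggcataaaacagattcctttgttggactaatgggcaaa

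Both chromogranins were highest in IEL replicate 1 and lowest in SPL replicate 2. *Chgb* encodes chromogranin B, an acidic granule protein that binds calcium and helps to package hormones. Its processed intensity was 733 and 98.9 units in IEL replicates 1 and 2, and 33.6 and 5.48 units in SPL replicates 1 and 2, of which the last was not well above background. The groups did not overlap, but IEL replicate 1 stood further from IEL replicate 2 than IEL replicate 2 stood from SPL replicate 1. The level was -0.45 ± 2.38 (SD, n = 2) in CD8αβ+ IELs and -5.36 ± 2.15 (SD, n = 2) in CD8αβ+ SPLs, a measured difference of 4.90 on the log2 scale. With the dim spleen value set to the background limit of its array, the difference was at least 4.64. That limit, the lowest signal called well above background on the array, is approximate. Within slide 1 *Chgb* was at least 191-fold higher in the CD8αβ+ IELs, with the background limit of the spleen array in place of its dim value, and within slide 2 it was 3.25-fold higher.

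*Chga*, which encodes chromogranin A, the most used general marker of endocrine cells, had 178 and 28.2 units in IEL replicates 1 and 2, and 9.29 and 4.43 units in SPL replicates 1 and 2. SPL replicate 2 was again not well above background, and the other spleen array lay just over the limit of detection. The mean difference of *Chga* was at least 3.64 on the log2 scale (4.01 as measured), with at least 46.6-fold on slide 1 and 3.35-fold on slide 2. The order of the 4 arrays was that of *Chgb*.

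Of the hormones, *Cck* on 1 of its probes, *Gcg*, *Sct*, *Sst* and, over a narrower range, *Gip* had the same order of arrays as the granins. *Cck* encodes cholecystokinin, which the upper small intestine releases after a meal of fat or protein and which contracts the gall bladder. Its probe A_51_P137322 had 208 and 102 units in IEL replicates 1 and 2, and 45.7 and 4.48 units in SPL replicates 1 and 2. The spleen samples thus differed from each other more than the IEL samples did, and SPL replicate 2 was not well above background. The mean difference of this *Cck* probe was at least 3.53 on the log2 scale (3.89 as measured), with at least 54.3-fold on slide 1 and 2.45-fold on slide 2.

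*Gcg* encodes proglucagon, which gut cells cut into glucagon-like peptides and pancreatic α cells into glucagon. It had 156 and 30.2 units in IEL replicates 1 and 2, and 15.3 and 7.14 units in SPL replicates 1 and 2. In SPL replicate 2 only 3 of its 10 repeat spots were well above background. The mean difference of *Gcg* was at least 3.23 on the log2 scale (3.28 as measured), with at least 40.7-fold on slide 1 and 2.17-fold on slide 2.

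*Sct*, which encodes secretin, the hormone that makes the pancreas release bicarbonate, was well above background on all 4 arrays. It had 338 and 140 units in IEL replicates 1 and 2, and 77.2 and 56.9 units in SPL replicates 1 and 2. The level was -0.76 ± 1.24 (SD, n = 2) in CD8αβ+ IELs and -3.02 ± 0.55 (SD, n = 2) in CD8αβ+ SPLs, so that the groups did not overlap and differed by 2.26 on the log2 scale. *Sct* was 11.5-fold higher on slide 1 and 1.99-fold higher on slide 2.

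*Sst* encodes somatostatin, which restrains the release of most other gut hormones. Its mean over repeat spots was 54.9 and 24.3 units in IEL replicates 1 and 2, and 17.1 and 21.1 units in SPL replicates 1 and 2. In units SPL replicate 2 lay above SPL replicate 1, and relative to the 75th percentile the order turned, with levels of -4.93 and -4.83. The mean difference of *Sst* was 1.53 on the log2 scale, 5.24-fold on slide 1 and 1.58-fold on slide 2.

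**Figure D1:**
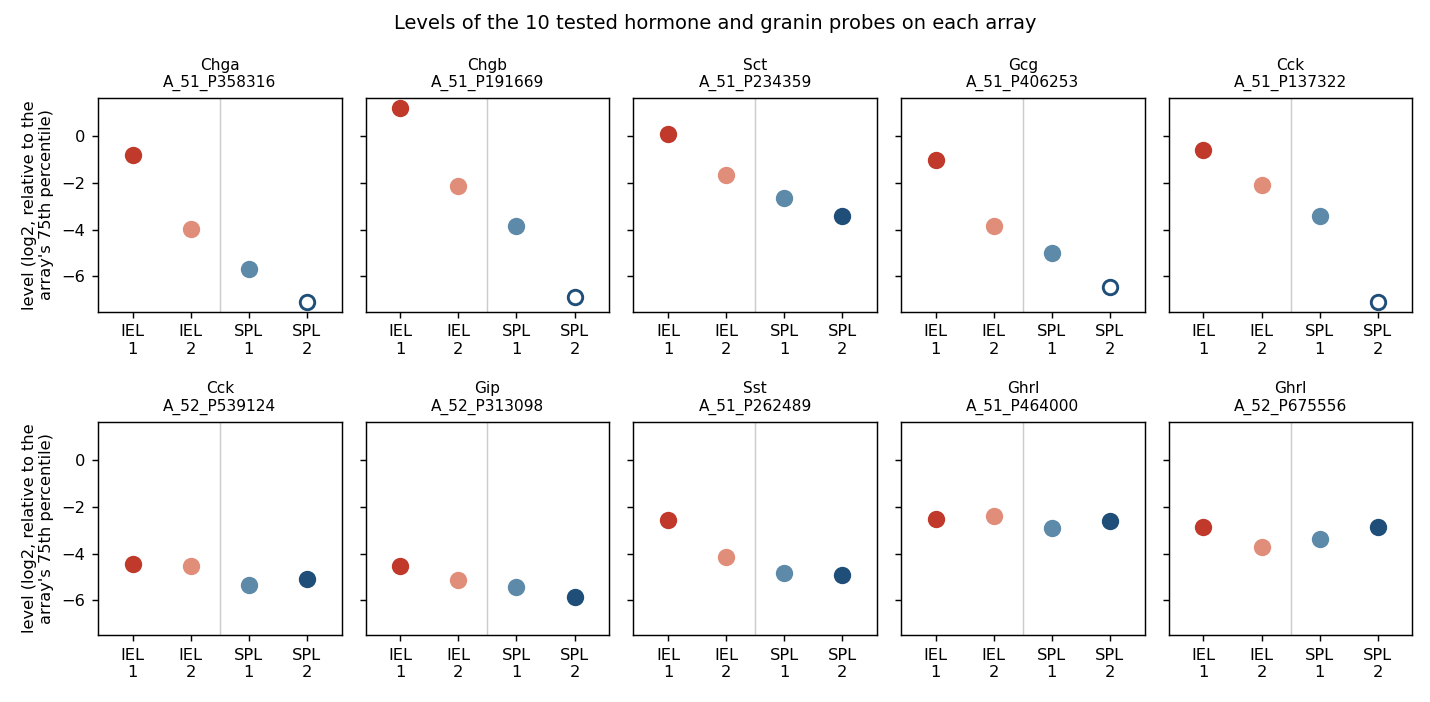
Level of each of the 10 tested probes on each array, as log2 processed intensity relative to the array's 75th percentile. Red points are IEL replicates 1 and 2, blue points are SPL replicates 1 and 2, and open points were not well above background. Points are to be compared within a panel, since probes differ in brightness. In 7 panels the arrays descend in the order IEL replicate 1, IEL replicate 2, SPL replicate 1 and SPL replicate 2, and the *Ghrl* panels are nearly flat.

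*Gip* and *Ghrl* did not share this range. *Gip* encodes the glucose-dependent insulinotropic peptide of the upper gut, which raises insulin release. It had 13.3 and 12.4 units in IEL replicates 1 and 2, and 11.1 and 10.4 units in SPL replicates 1 and 2, all well above background but close to its limit. These intensities lie close together, and the difference of 0.80 on the log2 scale comes largely from the scaling, because the 75th percentile was lowest in IEL replicate 1 and highest in SPL replicate 2.

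*Ghrl*, which encodes ghrelin, a hormone of the stomach and upper gut that stimulates appetite, was read by both of its junction probes on every array. Probe A_51_P464000 had 53.5 and 82.2 units in IEL replicates 1 and 2, and 64.7 and 98.5 units in SPL replicates 1 and 2. Its difference was 0.28 on the log2 scale, with the groups just apart after scaling. Probe A_52_P675556 had 43.0 and 33.4 units in IEL replicates 1 and 2, and 46.2 and 82.8 units in SPL replicates 1 and 2. Its groups overlapped and its difference was -0.16, so that the probes of *Ghrl* gave opposite signs. For neither probe did the spleen samples lie clearly below the intestinal ones.

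Probes of one gene also differed for *Cck*, *Chgb*, *Gcg* and *Tac1*. The second *Cck* probe, A_52_P539124, had 14.3 and 18.6 units in IEL replicates 1 and 2, and 11.9 and 17.6 units in SPL replicates 1 and 2. Its difference of 0.73 on the log2 scale was 0.66 on slide 1 and 0.79 on slide 2, without the wide range of the other *Cck* probe. The second probes of *Chgb* and *Gcg*, A_52_P652560 and A_52_P534383, were well above background on no array, with at most 1.73 and 6.63 units. By the annotation these 3 probes lie 3.42, 11.1 and 6.05 kb from the probe of the same gene that was bright, and each was designed to a cDNA clone and not to a RefSeq transcript.

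Neurotensin and the tachykinins were nearly absent. *Nts*, whose peptide slows gut movement and promotes fat uptake, was well above background on no array, with 5.83 and 4.09 units in IEL replicates 1 and 2, and 1.51 and 7.99 units in SPL replicates 1 and 2. *Tac1*, which encodes substance P and neurokinin A, peptides of enteric neurons and of some enteroendocrine cells, was well above background on 1 array. Its junction probe had 13.0 units in IEL replicate 1 and 1.71, 1.65 and 1.75 units in IEL replicate 2 and SPL replicates 1 and 2. These values are at the level of the negative controls, and the other *Tac1* probes had at most 5.18 units.

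Over all 16 probes, 11, 10, 10 and 6 were well above background in IEL replicates 1 and 2 and SPL replicates 1 and 2. On all 4 arrays 6 probes were, against 60.9% of all probes, and on no array 5 probes were, against 27.3%. The 10 probes that passed this limit on both arrays of a group, against 67.8% of all probes, represent 8 genes. For 4 of them SPL replicate 2 was not, so they were kept through the group in which they were brighter, and the counts that follow describe the probes kept and not all members. Both CD8αβ+ IEL arrays lay above both CD8αβ+ SPL arrays for 9 of the 10 probes, against 24.4% of all tested probes, and the opposite held for 0 of 10, against 24.6%. Before scaling, in units, *Ghrl* A_51_P464000 and *Cck* A_52_P539124 did not keep this separation. The full order from IEL replicate 1 down to SPL replicate 2 held for 7 of 10, against 13.8%.

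The size of the difference was not the same on the slides, and the slide and the pair of samples it carried cannot be told apart. The median over the 10 probes was 1.89 on the log2 scale, against -0.00072 over all tested probes, and it was 2.96 on slide 1 and 0.89 on slide 2. With dim spleen values at their limit the medians were the same, 1.89 and 2.96 on slide 1. On slide 1, 7 of the 10 probes were at least 2-fold higher in the CD8αβ+ IEL sample (11.8% of all tested probes), and on slide 2 this held for 4 (2.46%), namely those of *Chga*, *Chgb*, *Gcg* and *Cck* A_51_P137322. These 4 were at least 2-fold higher on both slides (1.79%). In CD8αβ+ IELs, 10 of 10 probes were higher on slide 1 (49.7%) and 9 of 10 on slide 2 (50.3%), where *Ghrl* A_52_P675556 was lower. Before scaling, in units, both *Ghrl* probes and *Cck* A_52_P539124 were lower in the CD8αβ+ IEL sample on slide 1. Without IEL replicate 1 the median fell to 1.05, and without IEL replicate 2 it was 3.14 over 11 probes, since *Tac1* then passed the filter. Without SPL replicate 1 or 2 it was 2.11 or 1.67. Under the normexp background correction, which spots well under their local background affected, the median turned to -0.56, and it was 1.12 when the correction was fitted without those spots. Limma called 2589 probes higher and 2932 lower in CD8αβ+ IELs without IEL replicate 2, which left a single intestinal array.

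**Figure D2:**
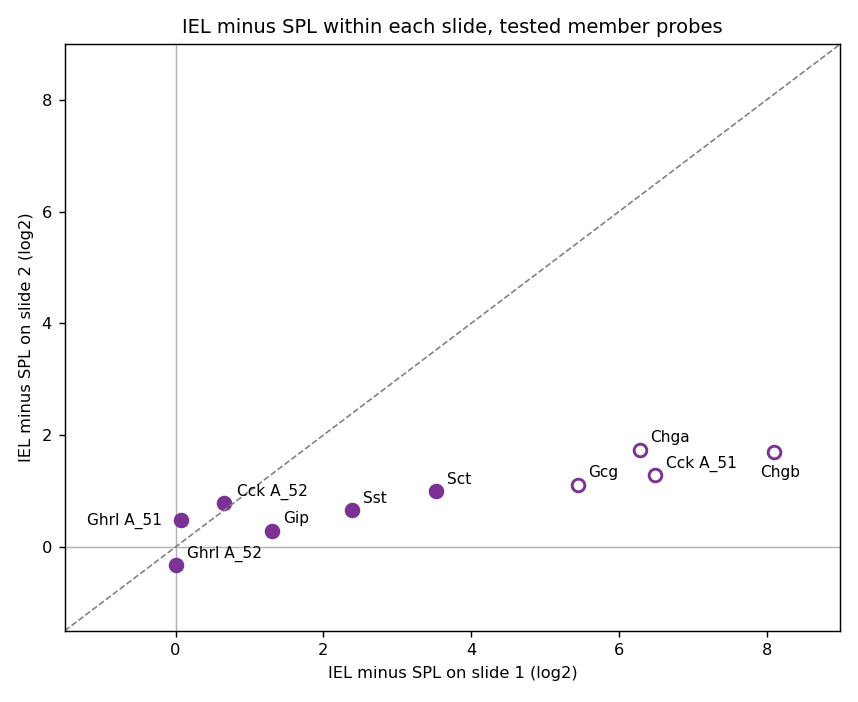
Difference between the CD8αβ+ IEL and the CD8αβ+ SPL array within slide 1 (horizontal axis) and within slide 2 (vertical axis), in log2 units, for the 10 tested probes. The dashed line marks equal differences, and open points are measured against a spleen array that was not well above background on slide 1. *Chgb* lies furthest right, at 8.11 as measured and at least 7.58 on slide 1 and at 1.70 on slide 2, and 8 of the 10 probes lie below the line.

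The probes of *Chgb*, *Gcg* and *Sst* were printed 10 times on each array, so the spread within an array can be seen. *Chgb* spots ran from 679 to 780 units in IEL replicate 1, from 88.0 to 104 in IEL replicate 2 and from 29.9 to 38.5 in SPL replicate 1, with coefficients of variation of 5.29%, 4.91% and 7.58%. In SPL replicate 2, 0 of its 10 spots were well above background, and they ran from 1.95 to 7.42 units. The 4 arrays of *Chgb* therefore did not overlap in a single spot.

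*Gcg* spots ran from 146 to 167 units in IEL replicate 1 and from 25.3 to 37.5 in IEL replicate 2. In the spleen they ran from 13.2 to 17.3 units in replicate 1 and from 5.02 to 10.2 in replicate 2, again without overlap. *Sst* spots were more spread, from 35.9 to 69.7 units in IEL replicate 1 and from 8.86 to 33.8 in SPL replicate 2, with coefficients of variation of 22.9% and 34.5%. On these arrays, both on slide 1, the 3 *Sst* spots in the lower part of the array differed from the 7 others by -0.728 and -1.07 on the log2 scale. Among 151 probes printed 10 times and well above background on all arrays, 8 had a gap at least this far down in IEL replicate 1 and 1 in SPL replicate 2, which was *Sst* itself. Without these spots the mean difference of *Sst* was 1.46 on the log2 scale.

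**Figure D3:**
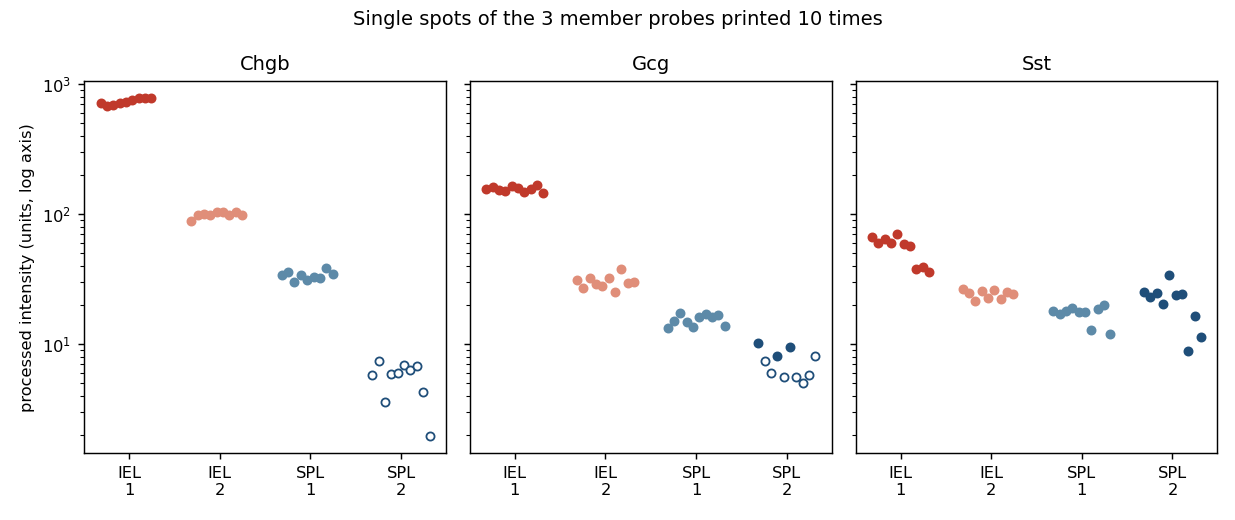
Processed intensity in units, on a log axis, of every unmarked spot of the *Chgb*, *Gcg* and *Sst* probes on the 4 arrays, ordered by row within an array. Open points were not well above background. *Chgb* and *Gcg* spots do not overlap between arrays, whereas the last *Sst* spots drop on IEL replicate 1 and SPL replicate 2.

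Other genes of the enteroendocrine program showed smaller differences in the median than the member probes, and this was not tested. The sets are not alike. The members were chosen with these values known, and 4 of their tested probes were kept through the brighter group. With 1 probe a gene, as used for the other genes, the member median was 2.77. Of 80 other genes listed, 76 were on the array and 50 had a tested probe, while 20 were well above background on no array. Their median difference was 0.21 on the log2 scale, and 39 of 50 were higher in CD8αβ+ IELs, against 49.9% of all tested probes. In 17 both CD8αβ+ IEL arrays were above both CD8αβ+ SPL arrays, against 24.4% of all tested probes, and in 6 they were below, against 24.6%. As for *Gip*, the scaling raises the difference of genes whose units are alike on all arrays. The untested *Grp*, *Cckar* and *Neurod1*, at the level of the negative controls, had 0.55, 0.55 and 0.54, while the dark *Lmx1a* and *Ffar4* had -0.18 and -0.37. Without the filter on dim probes the median of all probes was 0.154. The part of scaling in these counts was not tested. Limma called 0 higher and 0 lower among these 50, with a lowest adjusted p of 0.634, and 5 were higher and 0 lower at an unadjusted p under 0.05 (4.63% and 1.1% of all tested probes), which the unpaired test of the methods gave for 0.

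Among 17 other hormone genes on the array, 11 were tested, with a median difference of 0.26 on the log2 scale. Both CD8αβ+ IEL arrays were above both CD8αβ+ SPL arrays in 4 and below in 1, against 24.4% and 24.6% of all tested probes. The lower gene was *Nucb2*, at -1.09. *Insl5*, *Gal*, *Tac2* and *Pomc* had 0.09, 0.04, 0.09 and -0.007. *Gast*, which encodes gastrin, the hormone that drives gastric acid secretion, had 259 and 43.0 units in IEL replicates 1 and 2, and 26.5 and 51.7 units in SPL replicates 1 and 2. Only IEL replicate 1 stood apart in units, and the difference was 2.06 on the log2 scale. *Penk*, which encodes the enkephalins and is also made by lymphocytes, had 177 and 254 units in IEL replicates 1 and 2, and 133 and 47.9 units in SPL replicates 1 and 2. *Pyy*, which encodes the satiety peptide YY of L cells and is often made beside *Gcg*, had 157 and 123 units in IEL replicates 1 and 2, and 108 and 97.1 units in SPL replicates 1 and 2, a difference of 0.99 on this probe and of 0.44 on another. *Vip*, *Grp*, *Nmu*, *Ppy* and *Ucn3* were well above background on no array.

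Genes that build and process granule cargo had a median difference of 0.19 over 8 tested of 11 on the array. *Scg3*, a granin that ties chromogranin A to the granule membrane, had 69.7 and 15.6 units in IEL replicates 1 and 2, and 17.3 and 29.1 units in SPL replicates 1 and 2. *Pcsk1*, the prohormone convertase that cuts proglucagon in gut cells, differed in the other direction, with 7.35 and 35.1 units in IEL replicates 1 and 2, and 55.2 and 83.5 units in SPL replicates 1 and 2. Its IEL replicate 1 was not well above background, and its difference on slide 2 was -0.51. The granin *Scg5*, a helper of the convertase *Pcsk2*, had a difference of -0.91. The difference of *Pcsk2* was 0.40, that of carboxypeptidase E (*Cpe*) 0.37 and that of the amidating enzyme *Pam* 0.24. The genes of serotonin production and storage, of which 4 of 4 were tested, had a median of 0.67. *Tph1*, the rate-limiting enzyme, had 0.49, with 1.70 on slide 1 and -0.71 on slide 2. It had 19.6 and 4.58 units in IEL replicates 1 and 2, and 8.27 and 11.7 units in SPL replicates 1 and 2. Its IEL replicate 2 was not well above background. *Ddc*, which completes the synthesis, had 0.94 on its brightest probe and 0.51 on another.

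The transcription factors that specify enteroendocrine cells were mostly dark. *Neurod1*, *Insm1*, *Pax4*, *Isl1*, *Nkx2-2*, *Rfx6* and *Lmx1a* were well above background on no array. *Neurog3*, which commits progenitors to the endocrine fate, had 61.1 and 95.9 units in IEL replicates 1 and 2, and 76.7 and 74.3 units in SPL replicates 1 and 2, a difference of 0.57. *St18*, a zinc finger factor of endocrine cells, had 40.3 and 17.4 units in IEL replicates 1 and 2, and 9.87 and 2.45 units in SPL replicates 1 and 2, which is the order of the granins, and its other probe was well above background on no array. *Hhex*, which B cells also express, had a difference of -2.43 on its brightest probe and of 1.76 on another, so that its direction was not settled. *Etv1* had -1.62.

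Receptors of the member hormones were tested for 13 of 18 genes, with a median of 0.21. *Glp1r*, the receptor of glucagon-like peptide 1, which subsets of intestinal intraepithelial lymphocytes are known to carry, had the largest difference of the list, 2.91 on the log2 scale. It had 77.7 and 51.2 units in IEL replicates 1 and 2, and 17.5 and 8.58 units in SPL replicates 1 and 2. *Glp1r* was 17.6-fold higher on slide 1 and 3.23-fold higher on slide 2, with an adjusted p of 0.634 from limma. Its IEL arrays lay closer together than those of *Gcg*. The differences of *Gcgr*, *Gipr* and *Ghsr*, the receptors of glucagon, GIP and ghrelin, were 0.60, 0.22 and 0.16, and *Cckar* and *Sctr* were well above background on no array. Sensors of nutrients and bile acids had a median of 0.09 over 5 tested of 9 on the array.

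**Figure D4:**
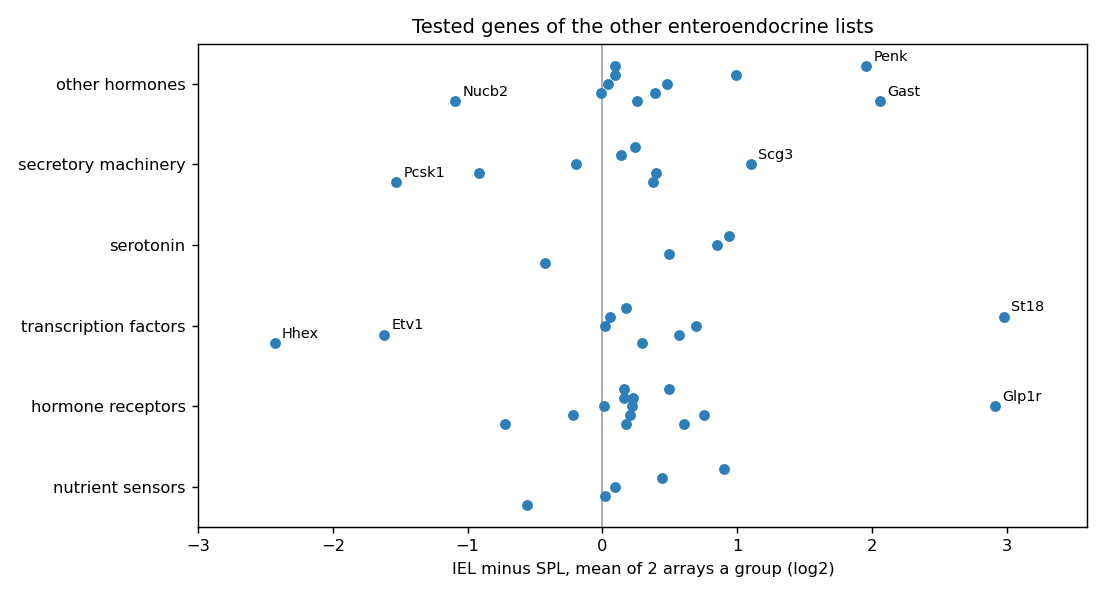
Difference between CD8αβ+ IELs and CD8αβ+ SPLs in log2 units, as means of 2 arrays a group, for the 50 tested genes of the other enteroendocrine lists. Each point is a gene, stacked only to keep points apart, and genes at least 1 unit from 0 are named. Most points lie near 0, with *St18* and *Glp1r* at 2.98 and 2.91.

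Markers of the epithelium and of goblet cells had the same order of arrays as the hormones and granins. The summed level of the 8 tested member genes, in multiples of the array's 75th percentile, was 5.56 and 1.19 in IEL replicates 1 and 2 and 0.572 and 0.345 in SPL replicates 1 and 2. The general epithelial genes, such as *Epcam*, *Cdh1* and the keratins, summed to 23.8, 3.92, 1.63 and 0.435 in the same order. Of these, 9 of 9 had the full order from IEL replicate 1 to SPL replicate 2, against 13.8% of all tested probes. Goblet cell genes, such as *Muc2* and *Tff3*, summed to 39.0, 4.55, 1.64 and 0.312, with that order in 7 of 7 tested.

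Paneth cell genes summed to 39.0, 4.44, 5.26 and 5.35 in IEL replicates 1 and 2 and SPL replicates 1 and 2, of which *Lyz1* made up most. *Lyz1* had 7864 and 1700 units in IEL replicates 1 and 2, and 2362 and 3076 units in SPL replicates 1 and 2. In 4 of 5 tested Paneth cell genes both CD8αβ+ IEL arrays were above both CD8αβ+ SPL arrays, against 24.4% of all tested probes. The full order held for 3 (*Itln1*, *Mmp7* and *Nupr1*), against 13.8%, and the median difference was 2.48. In units *Ang4* and *Nupr1* did not keep the separation. Enterocyte genes summed to 3.82, 1.95, 0.853 and 0.436. Both CD8αβ+ IEL arrays were above both CD8αβ+ SPL arrays in 8 of 9 tested, against 24.4% of all tested probes. In units *Alpi* and *Apoa4* did not keep this separation. Tuft cell genes did not share the pattern, with sums between 0.427 and 0.515 on all arrays and a median difference of -0.18.

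The insulin genes *Ins1* and *Ins2*, markers of pancreatic islets, were brightest in IEL replicate 1. *Ins1* had 158 and 17.6 units in IEL replicates 1 and 2, and 10.3 and 19.3 units in SPL replicates 1 and 2. Of 6 tested pancreatic genes, 5 had both CD8αβ+ IEL arrays above both CD8αβ+ SPL arrays, against 24.4% of all tested probes. Their median difference was 0.80. In units, before scaling, only *Cela1* among them kept this separation, and the exocrine enzymes were mixed. *Cela1* had 288 and 165 units in IEL replicates 1 and 2, and 81.7 and 23.6 units in SPL replicates 1 and 2, a difference of 2.86 with the full order. *Ctrb1* had between 494 and 656 units, *Prss2* and *Cela3b* were also well above background on all 4 arrays and *Cpb1* on 2, while *Pnlip*, *Amy2a5*, *Cela2a* and *Cpa1* were so on no array.

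CD8 T cell genes summed to 666, 730, 732 and 726, and their median difference was 0.02. Erythroid genes were lowest in IEL replicate 1, with sums of 1.06 in IEL replicate 1 and of 74.3, 98.1 and 115 in IEL replicate 2 and SPL replicates 1 and 2. B cell genes summed to 3.54 in IEL replicate 1 and to between 19.0 and 24.9 on the other arrays. Of 5 myeloid genes, *S100a8* had 3.66 units in IEL replicate 1 and 2202, 3321 and 5126 units on the other arrays, and *Csf1r*, lowest in IEL replicate 1, had 629, 914 and 508 units on the others, while *Lyz2* and *Cd68* had differences of 0.07 and 0.26. The part of epithelial, blood or other cells in the levels of the hormones and granins was not tested.

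**Figure D5:**
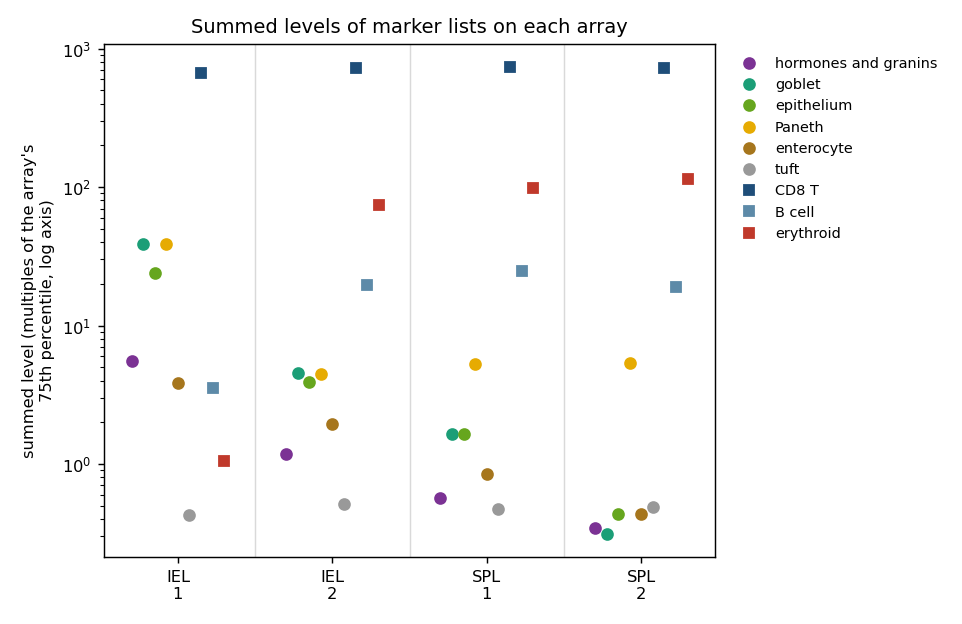
Summed level of the tested genes of 9 lists on each array, in multiples of the array's 75th percentile on a log axis. Circles are gut lists and squares are blood cell lists, set side by side within an array to keep points apart. The hormones and granins run from 5.56 in IEL replicate 1 to 0.345 in SPL replicate 2, beside epithelium and goblet genes, while CD8 T cell genes stay between 666 and 732.

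Genes outside the members whose 4 levels, centred on their mean, lay among the 5 nearest to the median pattern of the 8 member genes included *Ptpn13*, *Mcam*, *Myrip* and *Tnfrsf1b*. Their Euclidean distances over the 4 arrays were between 0.138 and 0.214 log2 units. Among the members *Sct* was nearest, at 0.55, and *Ghrl* furthest, at 3.03. *Myrip*, which links secretory granules to the actin cytoskeleton, differed by 2.57 on the log2 scale, with 4.23 on slide 1 and 0.92 on slide 2. With 4 arrays, likeness of this kind is shared by many genes, as 3849 of the 27911 tested probes had the same order.

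Promoters of all 10 genes were found among the RefSeq promoters of GRCm38.p6, with 13 promoters in all, and the 250 bases before each start were searched on both strands. The palindrome TGACGTCA, the full cAMP response element, was found in those of *Chgb* and *Sst*, and in 1.55% of all 32851 promoters. Its first 5 letters, TGACG, which lie within it, were found for 6 of the 10 genes and in 17.8% of all promoters. The letters TATAAA were found for *Gcg* and *Sct* and in 12.4% of all promoters. Windows of 30 bases with the motif in capitals are shown for these 4 genes, at chr2:132781559-132781588 (+), chr16:23890874-23890903 (-), chr2:62483659-62483688 (-) and chr7:141279143-141279172 (-). The motif begins 72, 48, 24 and 28 bases before the start.
Chgb: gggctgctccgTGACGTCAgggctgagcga
Sst: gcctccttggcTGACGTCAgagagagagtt
Gcg: cctggagagcaTATAAAagcacagcaccct
Sct: gtcccggcagcTATAAAgcggtggcgcggg
Such a match describes the letters and does not show that a factor was bound. *Chgb* and *Sst*, which share the full element, had measured differences of 4.90 and 1.53 on the log2 scale, and *Gcg* and *Sct*, which share TATAAA, had 3.28 and 2.26 as measured.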

How the data were processed

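CD8αβ+ IELs and CD8αβ+ SPLs (2 samples each) were measured on 4 arrays. The deposited scanner files hold processed intensity, mean intensity and local background, written by Agilent Feature Extraction 10.7.3.1 per the file headers (10.7.1.1 in the submitters' processing notes). A further table by the authors gives log2 values whose extremes are equal on all arrays. The methods of the study name PrimeView chips, whereas the files are Agilent arrays.

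Processed intensities were put on the log2 scale and set relative to the 75th percentile of their array. Outlier spots (98 to 179 an array) were dropped, and the mean of repeat spots was taken. No spot was saturated (0). A probe was tested when, on both arrays of either group, over 0.5 of its spots were well above background. The comparison used limma (version 3.58.1, R 4.3.3, Benjamini-Hochberg threshold 0.05, 2 residual degrees of freedom), which was tested on simulated data. The simulation drew independent noise for each array, so it checks the fit and does not measure power on these arrays. The fold within slide 1 is a lower limit where the spleen array was dim. It uses the lowest signal well above background on that array. The limit is approximate, since *Nts* with 7.99 units in SPL replicate 2 was not called, above the limit of 7.92 units. A gene of a list was represented by its brightest tested probe. By the study each sample was sorted from several mice, and p-values measure the spread between such samples. The replicate numbers were not treated as pairs. Deviations of same-numbered arrays had a correlation of -0.025 across probes, but 1 contrast a group cannot settle whether samples were paired.

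The members and lists were chosen with earlier results of these data known. Genes named are all members, list genes well above background in at least 1 group or defining a list, and the 5 genes nearest in pattern, of which 1 is not reported here. The alternatives were other scalings, normexp with an offset of 50 (also fitted without spots over 20 units below local background), the authors' values, other filters, marked spots kept, replicate number or slide as a block, the unpaired test of the methods, averaging the probes of a gene, and leaving out each sample. *Sst* without its lower spots was added after the data were examined. Sequences come from the scanner files (mm9 positions) and from RefSeq promoters of GRCm38.p6.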

Additional observations from a re-analysis of the deposited data

How the results depend on the processing

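The direction of the median member difference depended on the background correction. It was -0.563 under normexp with an offset of 50, where 0 of 10 member probes had both CD8αβ+ IEL arrays above both CD8αβ+ SPL arrays and the median of all probes moved by -0.38, and 1.12 with 9 of 10 under the second fit, where all probes moved by 0.152. The first fit placed the background at -20.9 to -680 units, against -4.49 to -5.6 without 3 to 16 spots far below their local background. It turned *Chga* (-0.475), *Gcg* (-0.492), *Cck* A_52_P539124 (-0.925), *Gip* (-0.944), *Sst* (-0.758) and *Ghrl* A_51_P464000 (-0.634). *Ghrl* A_52_P675556 turned to 0.119 under the second fit, 0.263 without IEL replicate 2 and 0.0949 without SPL replicate 2, in a range from -0.581 to 0.263 with each sample left out. Under the stricter filter 5 of 6 member probes were separated. Probes called by limma ranged from 0 to 2589 higher and from 0 to 2932 lower with each sample left out, and other enteroendocrine genes from 0 to 8 higher and from 0 to 5 lower. All of these calls came without IEL replicate 2, with the lone IEL array assumed to vary like the other group. The member median ranged from 1.05 to 3.14, and 9 to 11 probes were separated. The unadjusted test of the methods gave 470 probes higher and 349 lower, and 0 after adjustment. With the replicate block 0 probes passed in either direction, and the block changed no other call. For single member probes, 110 values under these settings moved by less than the spread between replicates and 8 by more, with the sign kept. This count does not measure stability. Leaving out 1 sample cannot move a value beyond that spread while its sign is kept, and other filters leave each value unchanged.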
